A study of Homo sapiens with 4 samples.

Results

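AHRR, its chromosome 5 neighbours PDCD6 and EXOC3, and the aryl hydrocarbon receptor genes AHR, ARNT and TIPARP were examined for H3K27Ac, a histone acetylation found at active enhancers and promoters. AHRR was selected on measured values, because some of the strongest peaks of both peak lists lie in it. PDCD6 and EXOC3 were taken for their position beside it, and AHR, ARNT and TIPARP for their part in the receptor pathway. These are 6 of 19374 protein-coding genes, of which 15331 had at least 1 control peak within the gene body or the 5 kb flanking it. All 6 were among the 15331. The strength, width and retention of the AHRR peaks are therefore a description of why the gene was chosen, and no test of them is given.

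The aryl hydrocarbon receptor, encoded by AHR, is a ligand-activated transcription factor of the bHLH-PAS family that waits in the cytoplasm with HSP90 chaperones. After binding a ligand, such as dioxin or a tryptophan metabolite, it enters the nucleus, pairs with ARNT and binds DNA at xenobiotic response elements. AHRR and TIPARP are both induced by the receptor and both restrain it, AHRR as a repressor that also pairs with ARNT and TIPARP as a mono-ADP-ribosyltransferase. PDCD6 is a calcium-binding penta-EF-hand protein, and EXOC3 is a subunit of the exocyst, which tethers secretory vesicles to the plasma membrane.

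MOLM13 cells, an established human AML line carrying MLL1-r, were studied by ChIPmentation, a form of chromatin immunoprecipitation whose libraries are tagged by the transposase Tn5. The libraries were 1 from control cells and 1 from cells given 500 nM of SNDX-50469, an inhibitor of the menin scaffold that MLL1 fusion proteins need, for 16 h. The control carries the treatment label None, whereas the treatment description speaks of DMSO. All values come from a single cell line, the 2 input libraries were not analysed here, and without replicates no difference has a replicate check and no p-value can be given.

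Each library has its own list of broad peaks on hg38. In the control list there were 245875 peaks covering 224 Mb, and in the SNDX-50469 list 54061 peaks covering 29.4 Mb, so most genes lost covered length. The read depth is unknown, and the lists end at different strengths, with a smallest −log10 p of 2.68 in control and 3.93 after treatment. Among the markers, 9 of 9 myeloid genes had peaks in both lists (7766 to 95092 bp in control), and HBB, EPCAM, KRT5 and ALB had no peak in either list. The 3 T-cell markers covered 268 to 9490 bp in control and the 3 B-cell markers 253 to 7866 bp, with no peak at a −log10 q of at least 5. KLF1 of the 3 erythroid markers, KRT8 and CDH1 of the 4 epithelial markers and APOA1 of the 2 hepatocyte markers covered 10660, 4342, 18346 and 2109 bp in control. Of these, KLF1 had 1 control peak at a −log10 q of at least 5, and the others had none. Whether other cells had a part in any result was not tested.

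To show what the peaks cover at the starts of these genes, and where the letters of the receptor's element occur there, the promoter sequences of the 4 receptor pathway members are given from 250 bases before to 50 bases after the outermost start (RefSeq, GRCh38.p14, the build of hg38). They are AHRR at chr5:321464-321763 on the plus strand, AHR at chr7:17298402-17298701 on the plus strand, ARNT at chr1:150876550-150876849 on the minus strand, and TIPARP at chr3:156674340-156674639 on the plus strand. Capitals mark the core of the xenobiotic response element, GCGTG, or its reverse complement CACGC.
AHRR: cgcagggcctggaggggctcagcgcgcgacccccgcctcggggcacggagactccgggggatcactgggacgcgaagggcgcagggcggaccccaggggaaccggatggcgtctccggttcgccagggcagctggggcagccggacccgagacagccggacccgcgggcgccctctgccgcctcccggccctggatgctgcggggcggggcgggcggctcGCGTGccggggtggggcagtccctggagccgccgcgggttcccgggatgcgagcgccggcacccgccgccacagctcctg
AHR: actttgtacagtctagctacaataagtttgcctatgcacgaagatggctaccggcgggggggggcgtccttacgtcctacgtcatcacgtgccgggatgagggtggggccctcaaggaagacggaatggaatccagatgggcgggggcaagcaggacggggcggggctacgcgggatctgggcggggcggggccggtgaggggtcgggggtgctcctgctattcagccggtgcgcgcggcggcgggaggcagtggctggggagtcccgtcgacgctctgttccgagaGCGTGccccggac
ARNT: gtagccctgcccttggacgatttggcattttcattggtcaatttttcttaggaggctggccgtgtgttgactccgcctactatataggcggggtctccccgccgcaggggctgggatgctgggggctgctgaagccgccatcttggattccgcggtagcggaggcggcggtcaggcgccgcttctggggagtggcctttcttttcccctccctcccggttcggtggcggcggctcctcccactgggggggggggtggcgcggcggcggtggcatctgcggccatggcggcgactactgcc
TIPARP: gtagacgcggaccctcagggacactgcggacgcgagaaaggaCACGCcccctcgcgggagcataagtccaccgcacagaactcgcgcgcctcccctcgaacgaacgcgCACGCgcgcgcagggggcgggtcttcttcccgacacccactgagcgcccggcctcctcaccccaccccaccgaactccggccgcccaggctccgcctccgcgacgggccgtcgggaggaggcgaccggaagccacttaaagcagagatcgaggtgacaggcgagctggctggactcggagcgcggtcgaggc

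The core occurred 1 time in the AHRR window, where it is part of the longer element TNGCGTG, 1 time in that of AHR, 0 times in that of ARNT and 2 times in that of TIPARP. PDCD6 and EXOC3 held 1 each. Of 35097 RefSeq promoter windows of this length, 36.5% held at least 1 core and 5.50% held TNGCGTG, counted on both strands. The core is thus common and the longer element less so. Binding of the receptor was not measured, and a match alone does not show it. In control, peaks covered 300 of the 300 bases at AHRR and at AHR, 9 at ARNT and 3 at TIPARP. Following SNDX-50469 treatment, 300 bases were still covered at AHRR, 0 at AHR, 0 at ARNT and 205 at TIPARP. The TIPARP value holds for the outermost start only. At its start at chr3:156674926, 300 bases were covered in control and 0 after treatment, and at chr3:156676664 0 were covered in either list. Among these 4 promoters, AHRR was thus the one whose window, core included, lay under a peak in both lists.

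At AHRR, on chromosome 5 from 321714 to 438285 on the plus strand, H3K27Ac peaks covered most of the gene in both libraries. With its 5 kb flanks, the gene had 16 control peaks spanning 114231 bp, which is 90.2% of the window. After SNDX-50469, 15 peaks covered 98161 bp, or 77.6%. Positions covered in both lists came to 97772 bp, so that 85.6% of the control covered length was kept. Of the 16 control peaks, 11 overlapped a treated peak by 1 bp or more (68.8%, Wilson 95% interval 44.4 to 85.8, counting error only). The interval takes neighbouring peaks as independent. Of the 15 treated peaks, 0 lay outside control peaks. Over the whole lists, 8.24% of control peaks and 57.0% of treated peaks shared a position with the other list. The peaks that reached a −log10 q of 5 numbered 6 in each list, beside 9275 of all 245875 control peaks and 938 of all 54061 treated peaks.

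**Figure D1:**
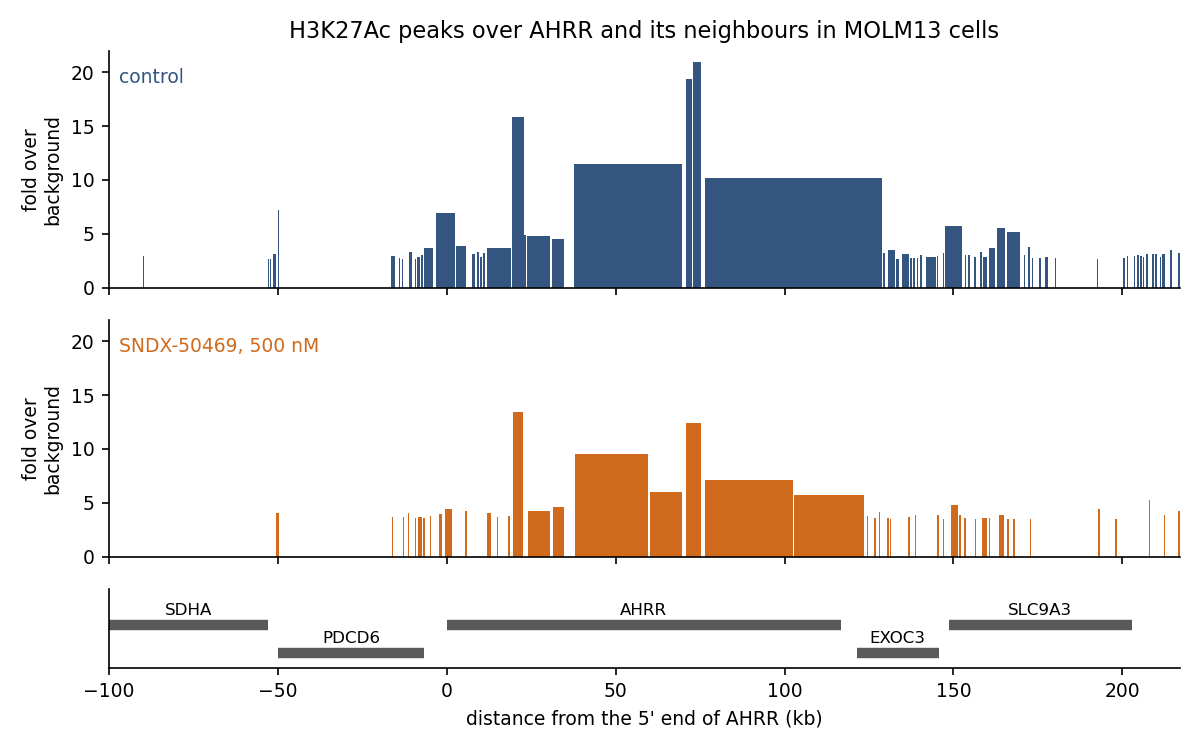
H3K27Ac peaks from 100 kb before to 100 kb past AHRR in control (blue) and after SNDX-50469 (orange), each bar spanning 1 peak with its height as the authors' fold over the background of its own library, above the positions of the genes. The wide blocks from about 20 kb to past the 3′ end of AHRR are present in both lists, whereas the peaks around the 5′ end and over PDCD6 and EXOC3 are narrower or fewer after treatment.

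The acetylation inside AHRR was strongest in 3 short peaks and widest in 2 long ones. In the control list, the peak at chr5:394624-397027 had a fold over background of 20.9 and ranked 2 of 245875. Its neighbour at chr5:392428-394290 had a fold of 19.4 (rank 6), and the peak at chr5:340983-344401 one of 15.8 (rank 10). Thus 3 of the 10 control peaks with the highest fold lie in AHRR, between 19.3 and 75.3 kb from its 5′ end. The longest were a 31952 bp peak at chr5:359398-391349, with a fold of 11.5, and a 52314 bp peak at chr5:398277-450590, with a fold of 10.2, which runs past the 3′ end of AHRR into EXOC3. By width, the latter ranked 16 of the control list.

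The treated list held peaks at the same places. The peak at chr5:341363-344387 had a fold of 13.4 and ranked 7 of 54061, and a single peak at chr5:392470-397013 spanned the pair of strong control peaks with a fold of 12.5 (rank 9). The 25789 bp peak at chr5:398273-424061, with a fold of 7.15, was the widest of the whole treated list. In all, 2 of the 10 treated peaks with the highest fold and 3 of the 10 widest lie in the AHRR window, the other wide ones being 21898 bp at chr5:359513-381410 and 20752 bp at chr5:424547-445298. Folds are relative to each library's own background, so ranks are given within a list and the folds were not set against each other between lists. The peak with the highest fold in each list was not at AHRR but at chr3:93470365-93470791, with 31.5 in control, and at nearly the same position after treatment, with 43.8. All ranks are over the lists as received, and no peak was left out because of its position.

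Retention was uneven along AHRR. A boundary drawn at chr5:340714, after the peaks had been seen, separates the parts. From there to the 3′ end, over 97572 bp, the control peaks covered 90122 bp and the treated peaks 88287 bp, and 97.6% was kept. The 5′ side differed. In the first 10 kb of the gene, 7074 bp of control coverage became 1818 bp (25.6% kept), and the next stretch, up to chr5:340713, fell from 7680 to 1485 bp (18.9% kept). The 5 kb before the gene fell from 4355 to 1571 bp (36.1% kept), and the 5 kb after it were covered throughout in both lists. The peak over the 5′ end itself spanned 5655 bp in control (chr5:318380-324034, fold 6.91) and 1971 bp after treatment (chr5:321171-323141, fold 4.38). Within 5 kb of the 5′ end, 33.3% of the control covered length was kept, so the value for the whole gene rests on its body and not on its promoter.

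The 5 AHRR control peaks with no shared position were 159 to 812 bp wide, 4 of them between 7.41 and 11.2 kb from the 5′ end and 1 at 23.1 kb, with folds from 2.88 to 4.84. Outside the 5 kb flanks, the kept share was again lower. It was 17.3% from 100 to 5 kb before the gene (7624 bp in control, 3021 bp after treatment) and 25.9% from 5 to 100 kb past it (42124 and 13142 bp).

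Beside other genes, the AHRR value was high. Of the 15331 genes, 45 (0.294%), AHRR included, kept at least as large a share, and the median over all of them was 2.40%. Most of those genes are covered over a far shorter length, so a class of 506 genes with at least 50 kb covered in control was formed after the values had been seen. Its median kept share was 7.59% (5th to 95th percentile 0.524 to 28.9), and in it no gene kept more than AHRR. The next were NDRG1 with 62.6% and SLC45A4 with 61.4%, followed by PAG1, ADGRA2, SLA and DENND3 between 44.6 and 38.7%. These 6 genes all lie on chromosome 8, and BCOR on X came after them with 36.3%. With the cut at 20 kb covered in control, 2 of 2090 genes kept more than AHRR. Only NCALD (129506 bp) and CPQ (107321 bp), both on chromosome 8, had a longer covered length after treatment among all genes.

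**Figure D2:**
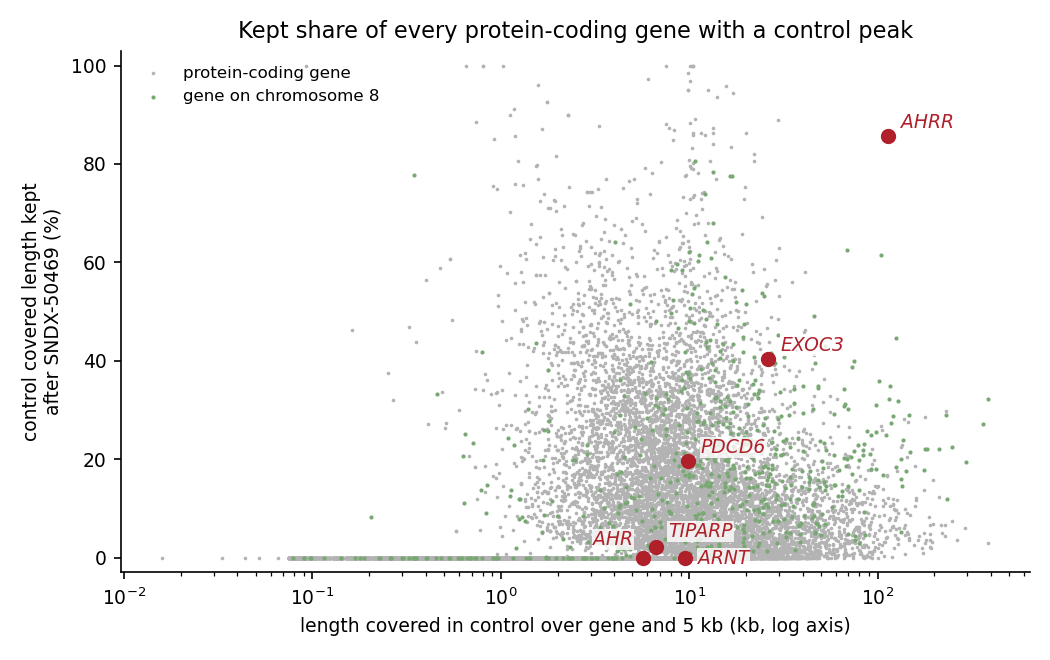
Kept share in percent against the length covered in control over each gene with its 5 kb flanks (kb, log axis), with 1 point per protein-coding gene that had a control peak (15331), genes of chromosome 8 in green and the 6 genes in red. AHRR stands at 85.6% with 114231 bp covered, EXOC3 and PDCD6 stand at 40.4 and 19.6%, and TIPARP, AHR and ARNT lie at 2.14, 0 and 0%.

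The 5 genes whose covered lengths were most like those of AHRR, by the distance of log10(bp + 1) over the 2 libraries, were CLVS1, SLC45A4, VPS13B, PAG1 and CYRIB, at distances from 0.129 to 0.308. All 5 lie on chromosome 8. Their control lengths ran from 101958 to 132721 bp and their treated lengths from 48303 to 74580 bp. The kept share of SLC45A4 was 61.4%, and VPS13B, the lowest, kept 15.9%. Genes with like lengths thus differed in how far the positions were shared.

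The first 45 Mb of chromosome 5 also stood apart from the rest of the chromosome, and these values are set beside AHRR. Without the AHRR window, the first 2 Mb kept 28.0% of the control covered length and the first 45 Mb kept 16.1%, against 5.23% on the rest of the chromosome (boundaries chosen after the values were seen). In the first 45 Mb, 1118 of 1711 treated peaks (65.3%) lay outside control peaks, or 24.9 per Mb, whereas on the rest 280 of 992 did (28.2%), or 2.05 per Mb. The AHRR window had 0 of 15 such peaks. Control peaks covered 90.2% of that window, so a treated peak there could hardly lie outside them. That count is therefore no contrast with the rest of the chromosome. Whether what sets this stretch of the chromosome apart had a part in the AHRR result was not tested.

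PDCD6 and EXOC3, on the 2 sides of AHRR, kept a smaller share than AHRR with 5 kb flanks, and how much they kept depended on the setting. PDCD6, on chromosome 5 from 271646 to 314974, had 13 control peaks over 9894 bp and 9 treated peaks over 3642 bp, with 19.6% kept. Its control peaks lie in 2 clusters, with none between 0.317 and 33.6 kb from the 5′ end. The peak just inside the 5′ end (chr5:271689-271963, fold 7.16) was met by a treated peak at chr5:271218-271931 (fold 4.04) that lay mostly upstream of it, so that 243 bp were shared. Although 9 of 13 control peaks shared at least 1 bp (69.2%, interval 42.4 to 87.3, beside 8.24% of all control peaks), the shared stretches were short. Its window overlaps that of AHRR, and the last 2 of its control peaks are also counted there. With control peaks held to the smallest −log10 p of the treated list, PDCD6 covered 4771 bp in control against 3642 bp, with 20.3% kept, so that it was no longer under 50% of control.

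EXOC3, from 443176 to 467290, had 26365 bp covered by 13 control peaks and 11751 bp by 11 treated peaks, and 40.4% was kept. Its 5′ end lies under the long block that begins in AHRR: of the 10001 bp within 5 kb of it, all 10001 bp lay under control peaks and 7557 bp under treated peaks (75.6% kept). The shared control peak ended at chr5:450590, and the shared treated peak ended at chr5:445298, 2.12 kb into EXOC3. Beyond it, 12 further control peaks, 192 to 4957 bp wide, included 7 with no shared position and a last one of 4957 bp that held a whole treated peak of 2136 bp. Over all control peaks, 8.24% shared a position. The high value at the EXOC3 5′ end and that of AHRR are thus largely the same peaks and not separate observations. The other genes within 100 kb were SDHA, a subunit of succinate dehydrogenase, with 3899 bp in control and 1884 bp after treatment (36.1% kept), and SLC9A3, a sodium-proton exchanger, with 23394 and 8217 bp (29.6% kept).

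**Figure D3:**
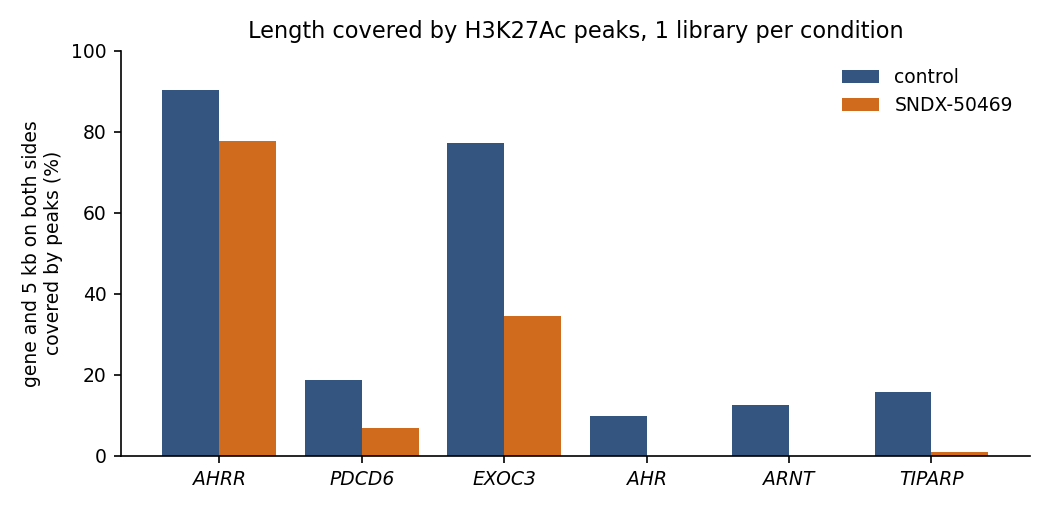
Percent of each gene and its 5 kb flanks covered by H3K27Ac peaks in the control (blue) and SNDX-50469 (orange) library, with 1 library per bar and no error. AHRR went from 90.2 to 77.6% and EXOC3 from 77.3 to 34.4%, whereas AHR and ARNT reached 0% after treatment.

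AHR had a control covered length near the middle of all genes, at rank 7819 of 15331, and no peak after treatment. On chromosome 7 from 17298652 to 17346147 (plus strand), 14 control peaks covered 5698 bp, 9.91% of the window. None was kept (0 of 14, upper Wilson bound 21.5%), and of all 245875 control peaks 8.24% shared a position with a treated peak. The strongest, 1414 bp over the 5′ end at chr7:17298223-17299636, had a fold of 4.97 and a −log10 q of 5.13, and the other 13 had folds from 2.66 to 3.72. Within 100 kb the picture was similar, where 53354 bp of control coverage became 1525 bp and 2.60% was kept.

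ARNT, the partner of AHR and also of HIF1A, lies on the minus strand of chromosome 1 from 150809713 to 150876599. Its 17 control peaks came to 9551 bp, 12.4% of the window, and again no treated peak was found. Thus 0 of 17 were kept (upper bound 18.4%), beside 8.24% of all control peaks. No ARNT peak reached a −log10 q of 5. The strongest began 0.0410 kb inside the 5′ end (chr1:150874266-150876558, 2293 bp, fold 4.05), and a second wide one of 2388 bp stood 22.2 to 24.6 kb into the gene, with a fold of 3.62. With 100 kb flanks, coverage went from 27772 to 4352 bp, of which the shared part was 13.1% of control.

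TIPARP, on chromosome 3 from 156674590 to 156706770 (plus strand), had 19 control peaks covering 6647 bp and 2 treated peaks covering 347 bp. The strongest control peak, at its 5′ end (chr3:156674637-156676216, 1580 bp, fold 5.24), had no counterpart. A treated peak of 205 bp (chr3:156674384-156674588, fold 3.64) lay in the gap between that peak and the one before it, and shared no position with either. The single control peak kept, 1 of 19 (5.26%, interval 0.935 to 24.6), was 981 bp wide and lay upstream of the 5′ end (chr3:156672036-156673016), with 142 bp shared. Over all control peaks, 8.24% were kept. The kept share of TIPARP was 2.14%, close to the median of 2.40% over all genes.

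**Figure D4:**
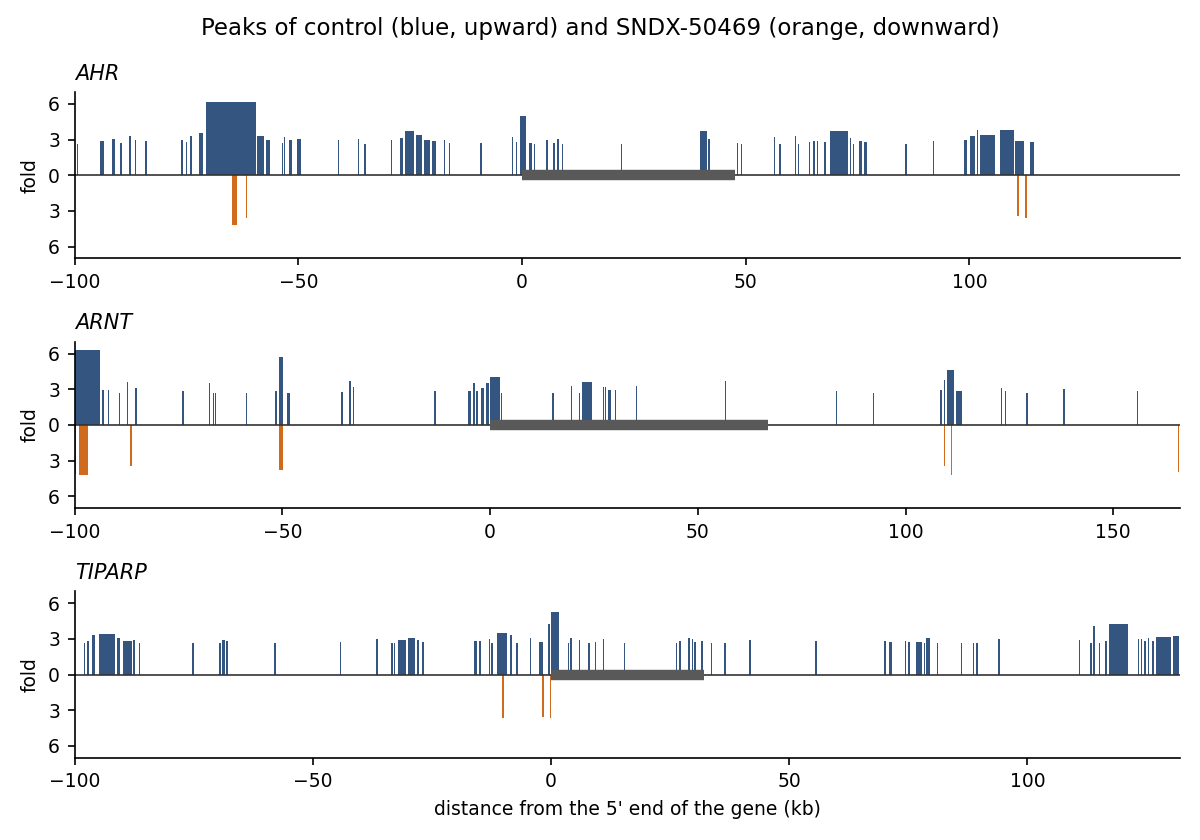
Peaks from 100 kb before to 100 kb past AHR, ARNT and TIPARP, with control upward in blue and SNDX-50469 downward in orange, the height being the fold over the background of each library and the grey bar the gene, read from its 5′ end. Control peaks stand at the 5′ end of all 3 genes at folds of 4.97, 4.05 and 5.24, and inside the 3 gene bodies no orange bar is drawn.

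The losses at these members were counted beside those of all genes. Coverage after SNDX-50469 was below that of control at 6 of 6 members, with a background of 98.2% of the 15331 genes. It was under 50% of control at 5 of 6, all but AHRR, with a background of 93.8%. None of the control covered length was kept at 2 of 6, AHR and ARNT, with a background of 44.6%. The median kept share of the 6 was 10.9%, beside 2.40% over all genes. Summed over the members, 63.6% of 164660 bp was kept, most of it at AHRR.

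Genes of the wider receptor pathway all kept a smaller share than AHRR, as did most genes, since only 44 of 15331 kept more. In 4 lists of 39 genes, 31 had a control peak, beside 15331 of all 19374 genes. Of these, 31 were under 50% of control after treatment and 17 kept nothing, again beside backgrounds of 93.8 and 44.6%. Their median kept share was 0%, and the highest was 42.7%.

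The chaperones of the receptor kept the most, with a median of 31.1% over 4 of 4 genes. HSP90AB1, which encodes an HSP90 protein, had 10124 bp in control and 4646 bp after treatment (42.7% kept). PTGES3, the co-chaperone p23, went from 8609 to 3408 bp (30.7% kept).

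Among the bHLH-PAS factors, relatives of AHR and ARNT, 11 of 13 genes had a control peak. All 11 were under 50% of control and 8 kept nothing, beside backgrounds of 93.8 and 44.6% of all genes. BMAL1, a circadian activator, went from 14784 to 203 bp, and EPAS1, a hypoxia-inducible factor, from 11817 to 143 bp, with no position shared in either. CLOCK, the partner of BMAL1, kept 34.9% (2757 and 963 bp), the highest of the list, and HIF3A kept 0% (3045 and 657 bp).

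Enzymes of tryptophan and kynurenine metabolism, some of which make ligands of the receptor, had a control peak at 6 of 8 genes. All 6 were under 50%, beside a background of 93.8%, with a median kept share of 0.726%. IL4I1, an amino acid oxidase that yields such ligands, went from 42807 to 5932 bp (13.6% kept). IDO2 went from 21765 to 896 bp, with 1.45% kept. TDO2 had no peak in either list, and IDO1 had none in control but 2 after treatment, covering 349 bp.

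Target genes of the receptor had a control peak at 10 of 14, with a median kept share of 2.80%. All 10 were under 50% and 5 kept nothing, again beside backgrounds of 93.8 and 44.6%. SLC7A5, an amino acid transporter that carries tryptophan, went from 30374 to 1755 bp (5.78% kept). NFE2L2, the regulator of the oxidative stress response, went from 24071 to 5959 bp (23.4% kept), and CYP1B1, a cytochrome P450, from 13019 to 2916 bp (22.4% kept). CYP1A1, the best-known target and named outside the rule for named genes, had 3961 bp in control and 180 bp after treatment, with 0% kept. AHRR and TIPARP, also targets, were not counted in this list.

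**Figure D5:**
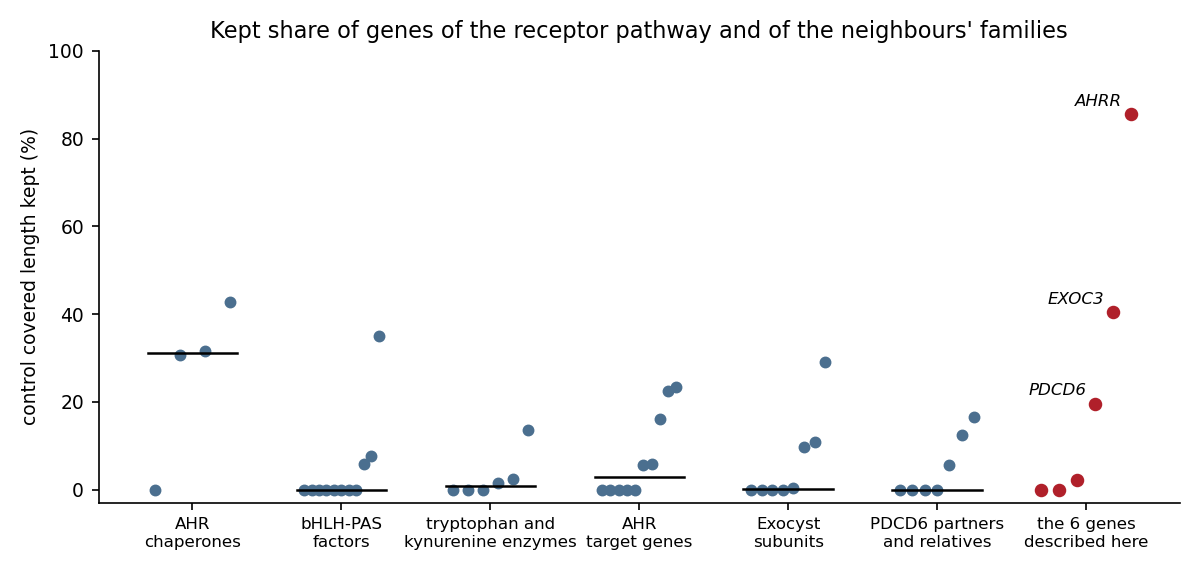
Kept share in percent of the genes with a control peak in 4 lists of the receptor pathway and 2 lists of relatives and partners of the neighbours (blue, black bar at the median of each list) and of the 6 genes (red), each over the gene body with 5 kb flanks. The highest blue point is HSP90AB1 at 42.7%, below AHRR at 85.6%, a share that only 44 of all 15331 genes exceeded.

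The relatives and partners of the neighbours were near the backgrounds of 93.8% under 50% of control and 44.6% with nothing kept. The other 8 exocyst genes all had a control peak, all 8 were under 50%, 4 kept nothing, and their median kept share was 0.229%, beside 40.4% at EXOC3. EXOC2 went from 13741 to 815 bp, EXOC4 from 13155 to 99 bp, and EXOC5 kept the most with 29.1% (3201 and 931 bp). Of 7 partners and penta-EF-hand relatives of PDCD6, 7 were under 50% and 4 kept nothing. ANXA11, an annexin that binds PDCD6, went from 32850 to 0 bp, SEC31A, a COPII coat protein, from 18323 to 2437 bp, and PEF1 from 13519 to 764 bp.

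When peaks within 12.5 kb were stitched, in the way super enhancers are built, and ranked by fold times length, AHRR and EXOC3 lay in 1 region in each list. The 3′ part of PDCD6 lay in it too. In control this region ran over 369214 bp with 101 peaks (chr5:305277-674490) and ranked 54 of 24668. After treatment it ran over 189154 bp with 40 peaks (chr5:305484-494637) and ranked 5 of 18541. The best stitched regions at AHR, ARNT and TIPARP ranked 1057, 4221 and 3309 in control, and after treatment only TIPARP of these 3 had one, at rank 8641.

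The main limit is the difference between the lists. With control peaks held to the smallest −log10 p of the treated list, AHR, ARNT and TIPARP still covered 2838, 5995 and 1901 bp in control, and 0% was kept at each. With only the strongest control peaks, up to the length that the treated list covers, no control peak was left at these 3 genes, and AHRR kept 95.3% with a longer covered length after treatment (98161 against 90302 bp).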

How the data were processed

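H3K27Ac was measured by ChIPmentation in MOLM13 cells, with 1 control and 1 SNDX-50469 library. The submitters' processing notes name Trim Galore 0.6.5, Bowtie2 2.3.4.2, Picard 2.9.0, MACS2 2.1.2 and GRCh38, while the supplementary methods name TopHat2; the use of an input library is not given in the sources used here. The authors deposited broad peaks called per library, without pooling. For each peak the deposited lists hold a ratio (fold over the background of its own library), a −log10 p and a −log10 q, all used here, and a score (not used).

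Python 3.11.15, numpy 2.4.6 and pandas 2.3.3 were used. The kept share expresses the positions under peaks of both lists in percent of the positions under control peaks, over RefSeq genes of GRCh38.p14 with 5 kb or 100 kb on both sides. A control peak was kept at 1 bp shared. The overlap code was tested on simulated data. The members, lists and tests were chosen with earlier results of these data known. Named were the 6 members, in each list the 2 genes with the longest control and the 2 with the longest treated coverage, the 5 genes most like AHRR and those within 100 kb of it; exceptions are stated. Alternatives were the flank, the peak cutoff, a trimmed control list, the 5′ end alone and joined peaks. Exons and peak sequences were not analysed here.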

Additional observations from a re-analysis of the deposited data

How the results depend on the processing

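Of 58 values recomputed with another setting, 37 stayed within tolerance, 18 moved and 3 reversed. The tolerance for a kept share was a Wilson 95% interval around its main value with the number of control peaks as n, which is wide for few peaks and is not an interval for base pairs, and for the count of genes it was 1.5 times. All 3 reversals came with the control list trimmed to the same covered length, which removes weak control peaks by construction: the kept share was 91.0% summed over the 6 genes, 95.3% at AHRR and 38.7% at PDCD6, each with a longer covered length after treatment, and the number of genes under 50% went from 5 to 0, with 3 of the 6 genes having no control peak left. There, the share of all genes under 50% fell from 93.8 to 38.4%, and their median kept share was 46.8%. The summed kept share of 63.6% was 39.3% with 100 kb on both sides, 81.9% with a −log10 q of at least 5, 74.9% with a common −log10 p and 34.3% within 5 kb of the 5′ ends, where AHRR had 33.3%; the cause was not tested. The number of genes under 50% was 3 both with 100 kb and with a common −log10 p, beside 96.6 and 83.5% of all genes. The genes no longer under 50% besides AHRR were PDCD6 and EXOC3, which kept 71.4 and 71.9% with 100 kb, where their windows take in much of AHRR, and 20.3 and 55.1% with the common −log10 p. In the trimmed list EXOC3 kept 63.5%. At a −log10 q of at least 5, AHR (1414 bp in control) and TIPARP (1580 bp) kept 0%. At AHRR the other settings gave 67.1 to 92.1%. Among genes with at least 50 kb covered in control none kept more than AHRR, except with 100 kb on both sides, where 10 of 5276 did (comparison chosen after seeing the data). That class held only 72 genes at a −log10 q of at least 5 and 29 in the trimmed list. Over all genes, those that kept more than AHRR ran from 29 of 18114 with 100 kb to 129 of 14558 with the gene body alone. In the trimmed list they were 113 of 3388. ARNT gave no value at a −log10 q of at least 5, and AHR, ARNT and TIPARP gave none in the trimmed list. No paired analysis was possible because only a single library exists per condition. Depth is not given in the lists and limits what the absence of a peak shows.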
